A study of Mus musculus with 40 samples.

Results

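The subject is 9 genes that mark resting, or homeostatic, microglia: P2ry12, Tmem119, Cx3cr1, Csf1r, Sall1, P2ry13, Siglech, Gpr34 and Olfml3. They are known markers, and the choice was made with earlier results of these data known, although no measured value entered the rule. Members were found by matching the gene IDs of the deposited table to these symbols. All 9 were found among the 54331 genes of the table, and all 9 were among the 21367 genes tested, those that reached a value of 10 in 4 or more libraries. The question put to them was whether they fell, stayed or rose in the libraries in which genes of microglial activation were higher.

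The study sequenced cerebellar RNA of male C57BL6 mice in 40 libraries, with 4 genotypes and a ketogenic (KD) or standard (SD) diet. On SD there were 4 DKO, 6 CSB, 6 INDY and 4 WT libraries, and on KD 5 DKO, 5 CSB, 6 INDY and 4 WT libraries. The labels name no alleles, ages or diet durations and do not say whether each library came from its own animal, so p-values measure the spread between these libraries. Indy is another name of Slc13a5, a citrate transporter, and CSB of Ercc6, a factor of transcription-coupled DNA repair. Values are estimated read counts normalised between libraries by the authors. The sequencing depth behind them is unknown, since the sums of normalised values, 23736702 to 32247186 per library, are not depths.

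Microglia are the resident macrophages of the brain. In health they carry a set of surface receptors for nucleotides, chemokines and lipids with which they survey the tissue, and their survival depends on signalling through Csf1r. In mouse models of neurodegeneration, microglia around lesions are known to raise genes of phagocytosis and lipid handling, such as Trem2, Cst7 and Itgax, while genes such as P2ry12 and Tmem119 decline in the same cells. In bulk tissue such as this, fewer cells of a type and less RNA per cell cannot be told apart.

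Slc13a5 went with the genotype label in every library, whereas Ercc6 and a further gene, Gm6768, went against it in 1. Slc13a5 read 0 to 0.934 in the 21 INDY and DKO libraries and 82.1 to 161 in the 19 WT and CSB libraries. Ercc6 read 382 to 876 in the 20 CSB and DKO libraries and 718 to 1069.5 in 19 WT and INDY libraries, so its ranges overlapped. The library labelled WT KD 25 read 633 for Ercc6, and it read 1041 for the processed pseudogene Gm6768, which was at 929 to 1245 in CSB and DKO and at 0 in the 19 others. Values without it are given beside some of the results for WT KD and for the comparison of CSB and DKO with WT and INDY, but not for every gene. Granule cell genes, which define the cerebellum, averaged 10.96 to 12.25 as log2(value + 1) in the 8 groups. RNA of forebrain genes reached a mean log2(value + 1) above 6.5 in 12 libraries, 2 of them DKO SD (DKO SD 1 at 10.2 and DKO SD 35 at 8.21) and none of them WT SD or CSB SD.

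Per kilobase of annotated exon, and as a mean over the 40 libraries, 3 of the receptors stood highest. Csf1r read 241 ± 57.8, P2ry12 192 ± 48.9 and Cx3cr1 169.6 ± 39.1 normalised counts per kilobase (SD, n = 40). Within single libraries these 3 genes always held the ranks 1 to 3 among the 9, and their order among themselves changed from library to library, with Cx3cr1 at rank 2 or 3. Gpr34 followed at 101 ± 25.3 and Tmem119 at 92.5 ± 20.9 per kilobase, and P2ry13 (63.6), Siglech (56.5), Olfml3 (50.8) and Sall1 (49.0) were lowest. The lowest value of any of the 9 genes in any library was the 70.5 of P2ry13 in INDY KD.

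The RefSeq promoter table (GRCm38.p6, 250 bases before to 50 after each start) held 6 of the 9 genes. The promoters of the neighbours P2ry12 and P2ry13, which varied together from library to library, and of Siglech, whose closest follower among the 9 was P2ry12, are shown 5′ to 3′ on the strand of the gene, with matches to GGAAGT or its reverse complement in capitals.
P2ry12 promoter, chr3:59262936-59263235, minus strand: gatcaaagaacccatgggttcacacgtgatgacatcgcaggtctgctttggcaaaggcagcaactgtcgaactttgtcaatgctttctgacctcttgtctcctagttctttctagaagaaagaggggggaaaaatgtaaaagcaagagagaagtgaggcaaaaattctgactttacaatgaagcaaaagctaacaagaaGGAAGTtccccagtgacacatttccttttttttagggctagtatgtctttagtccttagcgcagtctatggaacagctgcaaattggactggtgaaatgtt
P2ry13 promoter, chr3:59210833-59211132, minus strand: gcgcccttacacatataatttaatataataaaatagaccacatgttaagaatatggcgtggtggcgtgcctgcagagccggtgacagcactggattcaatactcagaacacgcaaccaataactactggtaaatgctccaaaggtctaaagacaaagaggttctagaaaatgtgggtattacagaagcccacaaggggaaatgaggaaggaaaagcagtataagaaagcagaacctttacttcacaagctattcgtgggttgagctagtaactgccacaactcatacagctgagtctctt
Siglech promoter, chr7:55767934-55768233, plus strand: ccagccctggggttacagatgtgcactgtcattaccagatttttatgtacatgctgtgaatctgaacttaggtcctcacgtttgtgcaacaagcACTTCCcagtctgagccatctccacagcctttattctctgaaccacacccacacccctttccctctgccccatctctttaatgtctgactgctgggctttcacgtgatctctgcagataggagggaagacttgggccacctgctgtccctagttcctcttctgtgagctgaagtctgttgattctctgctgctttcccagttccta
GGAAGT is the core read by ETS factors, the family of PU.1 that sets the macrophage programme, and it was searched on both strands. It was present in the promoters of P2ry12, Siglech and Sall1, 3 of the 6 genes. Counted by window it was in 3 of their 8, since Sall1 has 3 windows of which 1 holds it, and in 23.8% of the 32851 windows of the table. It was chosen after GAGGAAGT, the longer PU.1 motif that ends in the same letters, had shown 0 matches among the 6 genes (3.2% of all windows). Searched on both strands in the same windows, the RUNX motif TGTGGTTT (1.78% of all windows), the PU.1-IRF composite motif (0.731%) and the MEF2 motif (0.164%) were in 0 of the 6 promoters. The P2ry12 window holds the core, and these letters are not in the P2ry13 window.

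Positions are those of the GENCODE M21 annotation on GRCm38, a build that differs from the mm9 of the submitters' processing notes. P2ry12 (chromosome 3, 59216272 to 59262871) and P2ry13 (chromosome 3, 59207892 to 59210882), both receptors for ADP on the minus strand, lie next to each other inside Med12l, which runs on the opposite strand and shares 9 exon bases with P2ry12 and 0 with P2ry13. Gpr34 (chromosome X, 13632089 to 13640858, plus strand), a receptor for lysophosphatidylserine, lies inside Cask on the opposite strand and shares 0 exon bases with it. Cx3cr1 (chromosome 9, 119901616 to 120069879, minus strand) spans 9 other annotated genes and shares 78 exon bases with 1 of them, the antisense gene Gm33858, which read at most 11.0. Csf1r (chromosome 18, 61100598 to 61132149, plus strand) shares 873 of its 5774 exon bases with Hmgxb3 on the opposite strand, which read 946 to 1185. The sources used here do not say whether reads were counted by strand, so reads of the shared bases cannot be told apart. Hmgxb3 was not called in CSB and DKO against WT and INDY (log2 difference -0.07), nor was Med12l (0.005). Tmem119 (chromosome 5, 113793729 to 113800516), Sall1 (chromosome 8, 89027235 to 89044162) and Olfml3 (chromosome 3, 103722222 to 103738001), all on the minus strand, and Siglech (chromosome 7, 55768178 to 55778925, plus strand) overlap no other annotated gene.

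**Figure D1:**
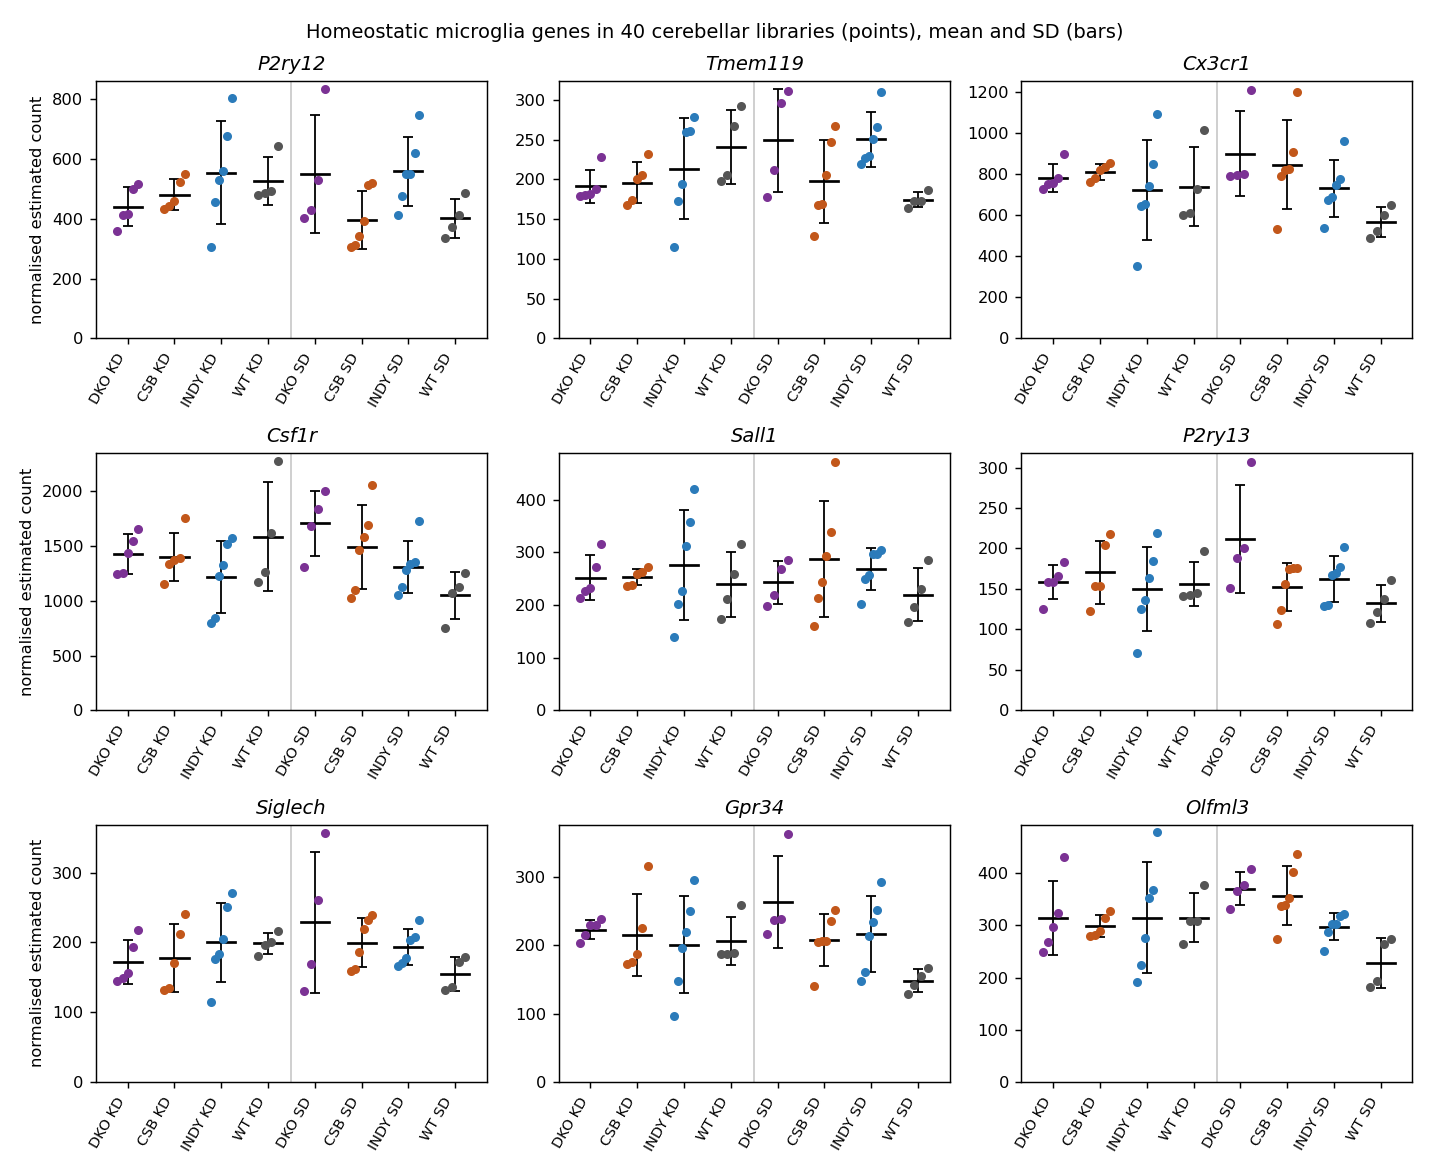
Normalised estimated count of each of the 9 homeostatic genes (vertical axes, from 0) in the 40 libraries (points), by genotype on KD (left of the grey line) and SD (right of it), with the mean and SD of each group as bars. WT SD holds the lowest mean for 8 of the 9 genes, and each group overlaps with its neighbours in the order of means, while groups farther apart in that order can separate.

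The group means of each gene were put in order from high to low. The highest group mean was 1.30 times the lowest for Sall1, the least variable by this measure, and 1.78 times for Gpr34, the most variable. In all 63 pairs of neighbouring groups in the order of means, over the 9 genes, the ranges of the libraries overlapped. Groups sorted by their means overlap readily with their neighbours, so this says nothing of groups farther apart. DKO SD, for example, stood wholly above WT SD for 4 of the 9 genes (9.28% of all tested genes). WT SD had the lowest mean for 8 genes, and for P2ry12 it was second lowest after CSB SD. DKO SD had the highest mean for Cx3cr1, Csf1r, P2ry13, Siglech, Gpr34 and Olfml3, INDY SD for P2ry12 and Tmem119, and CSB SD for Sall1.

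The CSB and DKO genotypes, in which Ercc6 was low, were compared with WT and INDY over both diets, each side as the mean of 4 groups. Activation genes were higher in CSB and DKO: 24 of the 36 tested were called higher and 0 lower, at an adjusted p under 0.05 over all tested genes (limma), with a median log2 difference of 0.49. Of the 9 homeostatic genes 0 were called in either direction, 4 had an unadjusted p under 0.05, all higher, and their median log2 difference was 0.20. In the same comparison 170 of 21367 genes (0.796%) were called, and the median over all genes was 0.007. An unadjusted p under 0.05 was found for 4009 genes (18.8%), 1507 of them higher. Without the library labelled WT KD 25, 0 of the 9 genes and 23 of the 36 activation genes were called, and the log2 differences of the 9 genes ran from -0.10 (P2ry12) to 0.34 (Cx3cr1). The median and the counts of the 9 genes and of the activation genes are descriptions of these lists, which carry no test of their own.

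Cx3cr1, the receptor of the neuronal chemokine fractalkine, read 533 to 1209.8 with a median of 797 in the 20 CSB and DKO libraries, and 354 to 1091 with a median of 663 in the 20 WT and INDY libraries. The ranges overlapped over most of their width. Its log2 difference of 0.30 (SE 0.10, 95% interval 0.10 to 0.50) had an unadjusted p of 0.0051 and an adjusted p of 0.109. Gpr34 read 140.1 to 363 with a median of 221 in CSB and DKO, and 97.0 to 295 with a median of 188 in WT and INDY. It differed by 0.26 (SE 0.11, adjusted p = 0.194). Csf1r, the receptor for Csf1 and Il34, read 1028 to 2059 with a median of 1452 in CSB and DKO, and 751 to 2277 with a median of 1261 in WT and INDY. The value of 2277 belongs to the library labelled WT KD 25, and the log2 difference was 0.25 (SE 0.10, adjusted p = 0.166), or 0.30 without that library (adjusted p = 0.103). Olfml3, a secreted olfactomedin-like protein, read 249.5 to 437 with a median of 329 in CSB and DKO, and 182 to 478 with a median of 295 in WT and INDY. Its log2 difference was 0.23 (SE 0.087, adjusted p = 0.138). Without INDY KD 22, the library with its highest value, it was 0.27 and passed the threshold (adjusted p = 0.0387), the 1 call among the 9 genes over the 40 fits that each left out 1 library. That fit called 1378 genes in all.

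P2ry12 and Tmem119, the genes most used as markers of the resting state, had differences below 0. P2ry12 read 305 to 833 with a median of 437 in CSB and DKO, and 304 to 801 with a median of 489.9 in WT and INDY. The ranges were almost the same, and the log2 difference was -0.13 (95% interval -0.33 to 0.08, adjusted p = 0.532). Tmem119, a membrane protein of unknown ligand, read 129 to 311 with a median of 194 in CSB and DKO, and 115 to 310.2 with a median of 223 in WT and INDY. It differed by -0.07 (95% interval -0.27 to 0.12, adjusted p = 0.743). For Siglech, a sialic-acid-binding lectin that signals through Tyrobp, the difference was 0.03 (95% interval -0.18 to 0.25). For Sall1, a transcription factor that mouse microglia need to keep their identity, it was 0.06 (95% interval -0.18 to 0.30). P2ry13 lay between these and the higher genes, at 0.20 (95% interval -0.02 to 0.42). The intervals of P2ry12, Tmem119, Siglech, Sall1 and P2ry13 include 0, which does not show that these genes were unchanged: a fall of 0.33 in P2ry12 or a rise of 0.42 in P2ry13 would lie within them.

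Most activation genes differed by more than any of the 9: in 23 of the 36 the log2 difference exceeded the 0.30 of Cx3cr1. Cst7, a cystatin of lysosomes, read 32.0 to 147 with a median of 54.4 in CSB and DKO, and 2.04 to 52.8 with a median of 10.8 in WT and INDY. The ranges overlapped in part, and the log2 values differed by 2.23 (SE 0.21, adjusted p = 9.87e-09). Itgax, an integrin subunit, differed by 2.15 (SE 0.20), Clec7a, a receptor for fungal glucans, by 1.77 (SE 0.18) and Gpnmb, a lysosomal glycoprotein, by 1.72 (SE 0.18). Cd68, a glycoprotein of phagocyte lysosomes, differed by 1.10 (SE 0.11), Tyrobp, the adaptor of Trem2 and Siglech, by 0.93 (SE 0.12), Mpeg1, a pore-forming protein, by 0.90 (SE 0.10) and Trem2, a lipid receptor, by 0.89 (SE 0.11). All of these were called, and all were higher in CSB and DKO.

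**Figure D2:**
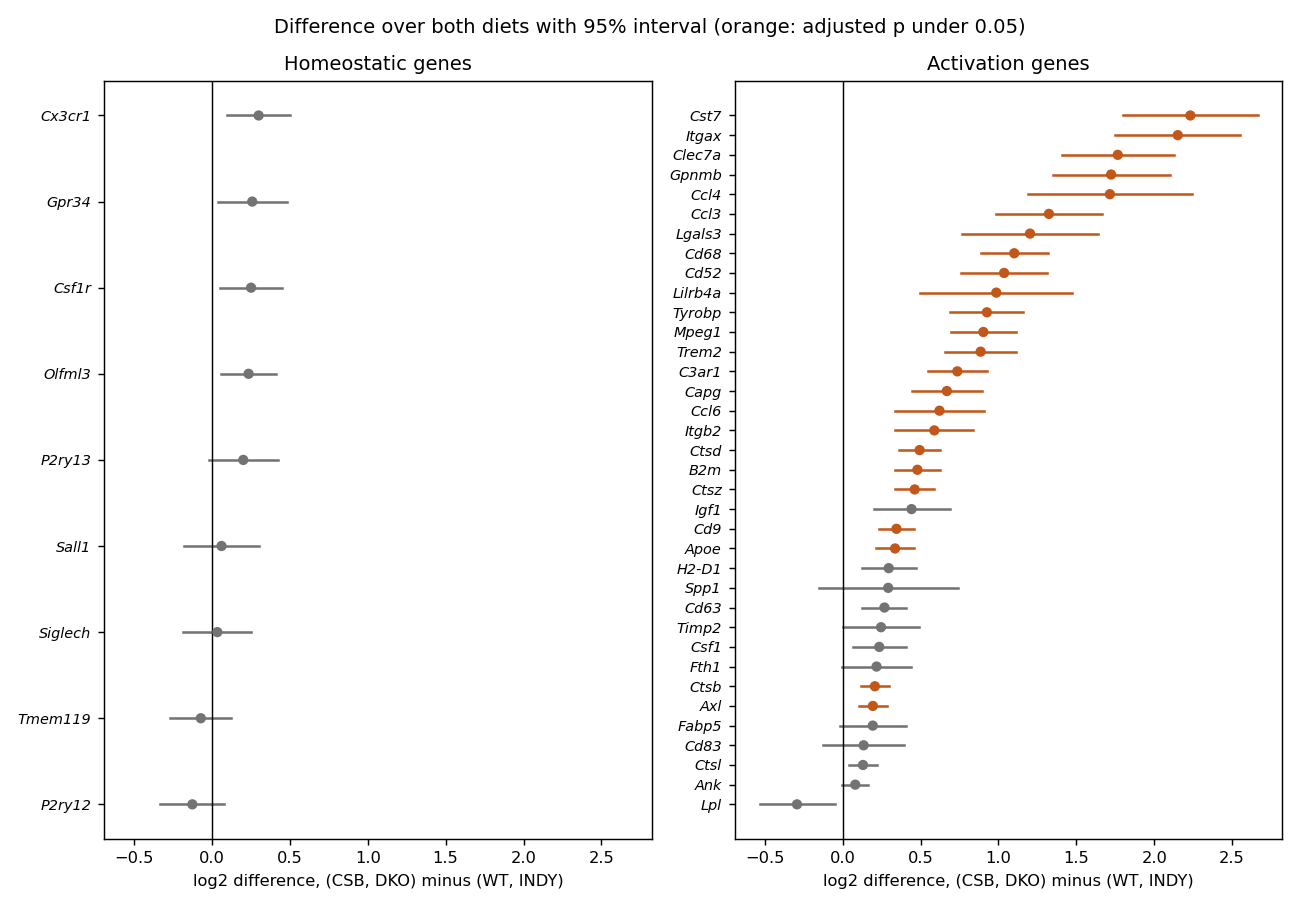
Difference of log2(value + 1), CSB and DKO minus WT and INDY over both diets, with its 95% interval (horizontal axes) for the 9 homeostatic genes (left) and the 36 activation genes (right), in orange where the adjusted p was under 0.05. The homeostatic genes lie between -0.13 and 0.30 with 0 called, and the activation genes between -0.29 and 2.23 with 24 called.

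Other genes of microglia stood between these. Over 33 further genes ascribed to homeostatic microglia the median log2 difference was 0.08, and 22 of them were above 0. Of 30 genes shared by microglia and other macrophages, 13 were called higher, all 30 were above 0 and the median was 0.46. The complement genes C1qa, C1qc and C1qb differed by 0.75, 0.69 and 0.68, the cathepsin Ctss by 0.64, the Fc receptor chain Fcer1g by 0.63, Ly86, a partner of a Toll-like receptor, by 0.62, the oxidase subunit Cyba by 0.50 and Nckap1l, a regulator of actin, by 0.47, all called. Of 27 ligands and partners of the 9 genes, 2 were called: Tyrobp, and Irf8, a transcription factor of the macrophage lineage (0.58, SE 0.12). The ligands themselves were not called. Csf1 differed by 0.23, Il34, the other ligand of Csf1r, by -0.05, Cx3cl1, which encodes fractalkine, by 0.05 and Tgfb1, a cytokine on which homeostatic genes depend in mice, by -0.01 (adjusted p = 0.127, 0.90, 0.917 and 0.974 in that order).

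Among markers of other cells, few were called in this comparison. Of 14 genes of border-associated macrophages 0 were called (median -0.13), of 12 monocyte genes 1, the lysozyme Lyz2 that macrophages also make, was called higher (median -0.05), and of 10 neutrophil genes (median -0.77) and 7 lymphocyte genes (median -0.04) 0 were called. Of 13 oligodendrocyte genes 0 were called, with 13 above 0 and a median of 0.16, and of 14 granule cell genes 0 were called, with 0 above 0 and a median of -0.08. Of 13 astrocyte genes 1, Gfap, was called higher. With the granule cell level as a covariate, chosen after the data were seen, 0 of the 9 genes were called, and P2ry12 differed by -0.18 (adjusted p = 0.0981), Tmem119 by -0.12, Siglech by -0.02 and Cx3cr1 by 0.25. With the forebrain level as a covariate the 9 differences ran from -0.13 to 0.30, as without it. The part of the other cell types in the values of the 9 genes was not tested.

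**Figure D3:**
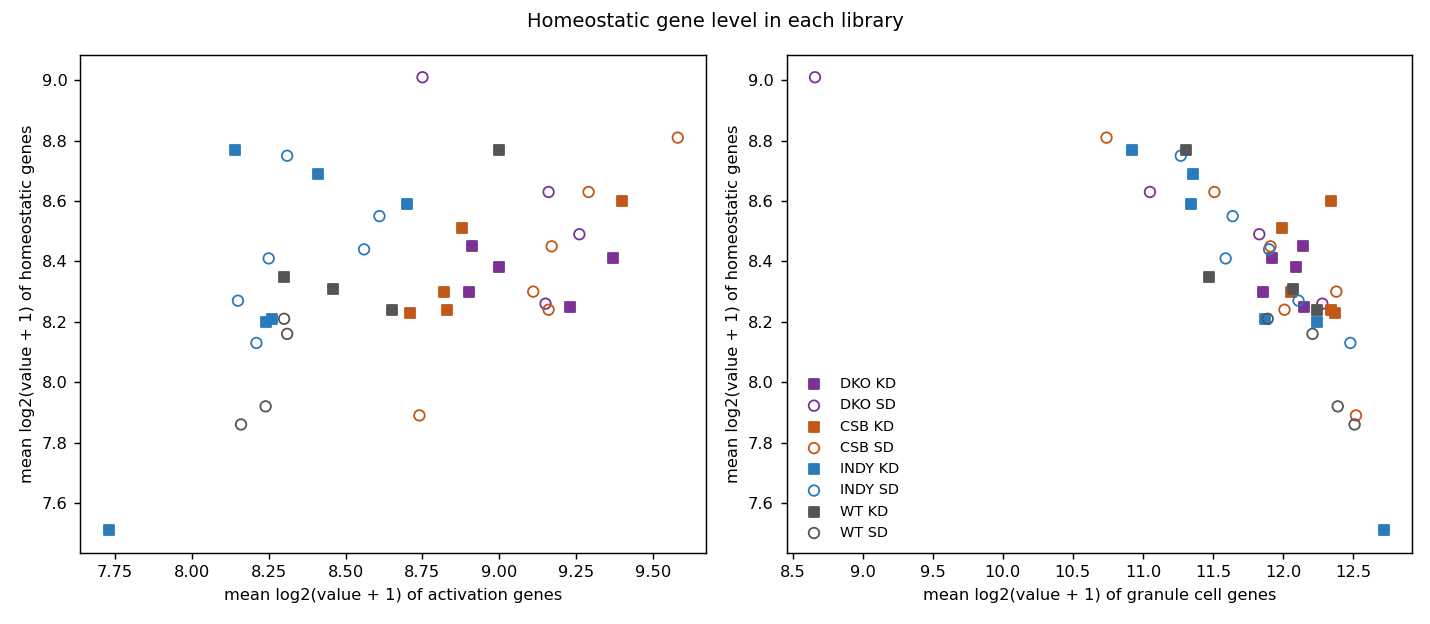
Mean log2(value + 1) of the 9 homeostatic genes in each of the 40 libraries (vertical axes) against that of 36 activation genes (left) and of 14 cerebellar granule cell genes (right), by genotype (colour) and diet (filled squares KD, open circles SD). Activation reaches 8.71 to 9.58 in CSB and DKO at homeostatic levels of 7.89 to 9.01, which overlap those of WT and INDY (7.51 to 8.77), and homeostatic levels are lower where granule cell levels are higher.

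Set side by side per library, the mean log2 level of the 9 genes was 8.42 ± 0.24 in CSB and DKO and 8.32 ± 0.33 in WT and INDY (SD, n = 20 each). That of the activation genes was 9.07 ± 0.25 in CSB and DKO and 8.35 ± 0.26 in WT and INDY. Activation levels ran from 8.71 to 9.58 in CSB and DKO and from 7.73 to 8.70 in 19 WT and INDY libraries. The library labelled WT KD 25 stood at 9.00, inside the CSB and DKO range, and its homeostatic level of 8.77 equalled the highest of the other 19.

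Relative to the 30 genes that microglia share with other macrophages, the homeostatic genes as a mean stood lower in CSB and DKO than in WT and INDY on SD, and on KD lower than in INDY and at about the level of WT. Over both diets their mean log2 level exceeded that of the shared genes by 0.80 ± 0.15 in CSB and DKO and by 1.12 ± 0.25 in WT and INDY (SD, n = 20 each). For P2ry12 the excess was 1.19 ± 0.31 in CSB and DKO and 1.78 ± 0.28 in WT and INDY. On SD it was 0.65 to 1.31 in CSB and 0.97 to 1.90 in DKO, against 1.74 to 2.18 in INDY and 1.60 to 1.88 in WT, so the CSB libraries lay wholly below the INDY and WT libraries and DKO SD 1 alone reached into their range. For Tmem119 it was 0.05 ± 0.24 in CSB and DKO and 0.57 ± 0.29 in WT and INDY, with -0.25 to 0.24 in CSB SD against 0.49 to 0.59 in WT SD. For Olfml3 the values were closer, 0.76 ± 0.19 in CSB and DKO and 0.96 ± 0.25 in WT and INDY. They were closer too for Cx3cr1 (2.07 ± 0.17 and 2.21 ± 0.31) and Csf1r (2.91 ± 0.17 and 3.09 ± 0.29). On SD, Cx3cr1 ran from 1.79 to 2.22 in CSB and from 2.15 to 2.38 in WT. Csf1r ran from 2.49 to 3.02 in CSB SD and from 2.68 to 3.35 in WT SD, so the ranges overlapped for both genes. The same quantity for the activation genes was higher, at 1.46 ± 0.16 in CSB and DKO and 1.15 ± 0.20 in WT and INDY. On KD the excess of the 9 genes was 0.83 ± 0.14 in DKO (n = 5) and 0.84 ± 0.10 in CSB (n = 5), against 1.16 ± 0.13 in INDY (n = 6) and 0.85 ± 0.43 in WT (n = 4). That of P2ry12 was 0.91 to 1.69 in DKO and 1.20 to 1.51 in CSB, against 1.68 to 2.26 in INDY and 0.91 to 1.78 in WT, so the WT libraries spanned both mutant ranges. WT KD 12 held the lowest excess of the 9 genes, 0.25, and its neutrophil level was the highest of the 40 libraries. The 0.91 of P2ry12 in WT KD was also from this 1 library, and the WT KD median for P2ry12 was 1.57. Without the library labelled WT KD 25 the excess of the 9 genes was 0.76 ± 0.48 in WT KD (n = 3) and 1.12 ± 0.25 in WT and INDY (n = 19). These are differences of log2 levels between genes within a library. They were chosen with the separate results known, are given without a test, and show unequal change, not which side changed.

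**Figure D4:**
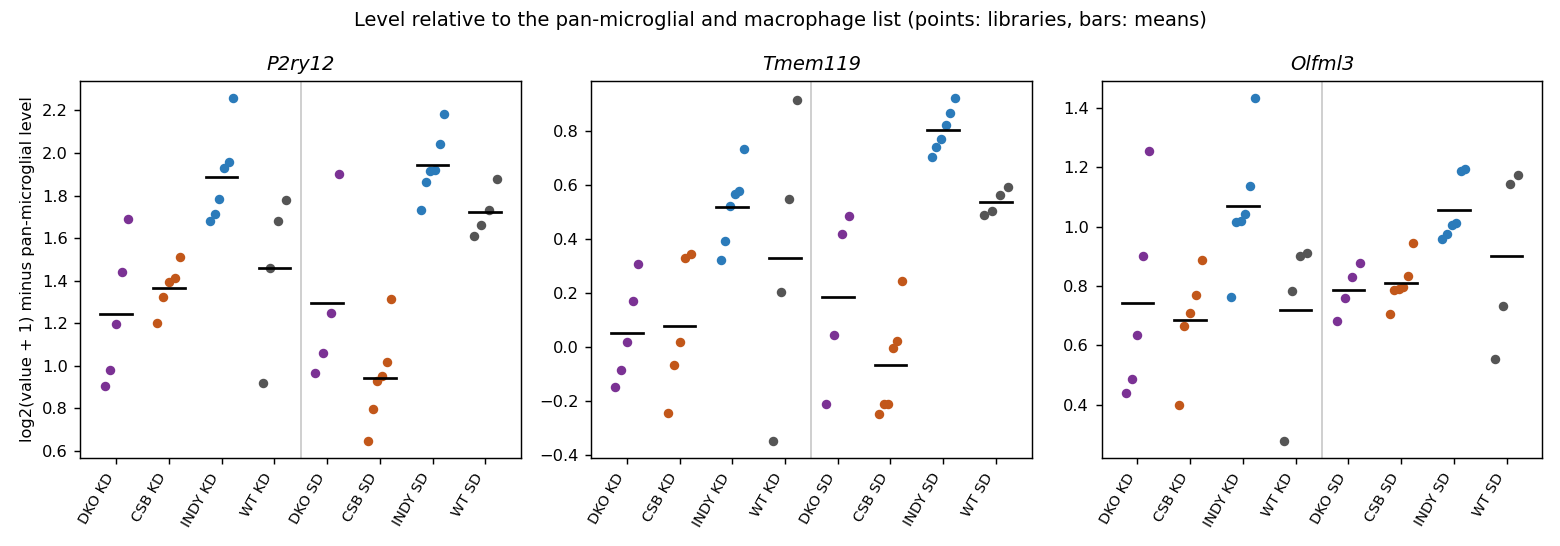
Difference between log2(value + 1) of P2ry12, Tmem119 or Olfml3 and the mean log2(value + 1) of 30 pan-microglial and macrophage genes (vertical axes), in each of the 40 libraries (points) with the group means (bars), by genotype on KD (left of the grey line) and SD (right of it). P2ry12 lies at 0.65 to 1.31 in CSB SD and at 1.60 to 1.88 in WT SD, whereas on KD its range of 1.20 to 1.51 in CSB lies inside the 0.91 to 1.78 of WT. The 0.91 is that of WT KD 12 alone, the library with the highest neutrophil level, and the median of WT KD is 1.57.

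On SD, DKO was compared with WT. Here 3 of the 9 genes were called higher: Gpr34, Olfml3 and Csf1r. All 9 differences were above 0 with a median of 0.64, in a comparison in which 1265 genes (5.92%) were called in either direction, 662 of them (3.1%) higher and 603 (2.82%) lower, and the median of all genes was 0.001. Gpr34 read 363, 236, 216 and 238 in DKO, against 142, 155, 128 and 167 in WT, with no overlap and the highest value in DKO SD 1. It was 1.74-fold higher (log2 difference 0.80, SE 0.24, adjusted p = 0.0459). Olfml3 read 377, 367, 408 and 331 in DKO, against 265, 274, 182 and 194 in WT. The groups did not overlap, and it was 1.64-fold higher (log2 difference 0.71, SE 0.19, adjusted p = 0.038). Csf1r read 2007, 1681, 1839 and 1309.8 in DKO, against 751, 1253, 1125 and 1068 in WT. The lowest DKO library stood just above the highest WT library, and the gene was 1.64-fold higher (log2 difference 0.71, SE 0.22, adjusted p = 0.0478).

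Cx3cr1 read 1209.8, 791, 794 and 799 in DKO, against 523, 649, 489 and 603 in WT. Again every DKO library stood above every WT library, with DKO SD 1 far above the other 3, but the difference of 0.65 (SE 0.22) was not called (adjusted p = 0.0596). In all, 4 of the 9 genes had every DKO library above every WT library, as did 9.28% of all tested genes. P2ry13 differed by 0.64 (adjusted p = 0.0762), Tmem119 by 0.47 (adjusted p = 0.124), Siglech by 0.47 (adjusted p = 0.167), P2ry12 by 0.40 (adjusted p = 0.21) and Sall1 by 0.16 (adjusted p = 0.705). Siglech read 357, 168, 261 and 131 in DKO, against 136, 173, 132 and 179 in WT, so that 2 DKO libraries lay within the WT range or below it. Those 2, DKO SD 34 and DKO SD 36, were the libraries without a high forebrain level.

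The 3 calls depended on single libraries and on the setting. The number of the 9 genes called was 0 without DKO SD 1, DKO SD 35, WT SD 39, WT SD 41 or WT SD 42, 1 without DKO SD 34 or WT SD 40, and 4 without DKO SD 36, when P2ry13 joined them. It was 2 in the fit of only the groups compared, in which Csf1r had an adjusted p of 0.0572. It was also 0 with no filter on low values, with the forebrain level as a covariate, without the 12 libraries of high forebrain level, and with the granule cell level as a covariate, an alternative chosen after the data were seen. Adjusted p-values depend on all genes tested, so these counts can shift with the calls of the whole comparison. The numbers of all genes called in these fits are not given here. The granule cell level was 10.96 ± 1.61 in DKO SD (n = 4), with 8.66 in DKO SD 1, and 12.25 ± 0.27 in WT SD (n = 4). Forebrain genes averaged 7.38 ± 2.27 in DKO SD and 5.52 ± 0.16 in WT SD. With the forebrain level as a covariate the log2 difference was 0.535 for Gpr34, 0.536 for Olfml3 and 0.488 for Csf1r, and P2ry12, Siglech and Sall1 were at 0.032, 0.052 and 0.064. With the granule cell level as a covariate the log2 difference was 0.36 for Gpr34, 0.45 for Olfml3 and 0.37 for Csf1r, and P2ry12, Siglech and Sall1 were at -0.13, -0.05 and -0.28. Of the activation genes 18 of 36 were called higher in this comparison, 12 without DKO SD 1, 10 without WT SD 42, 7 without DKO SD 35, 5 without WT SD 39, 3 without WT SD 41, 4 with the forebrain covariate and 1 with the granule cell covariate.

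**Figure D5:**
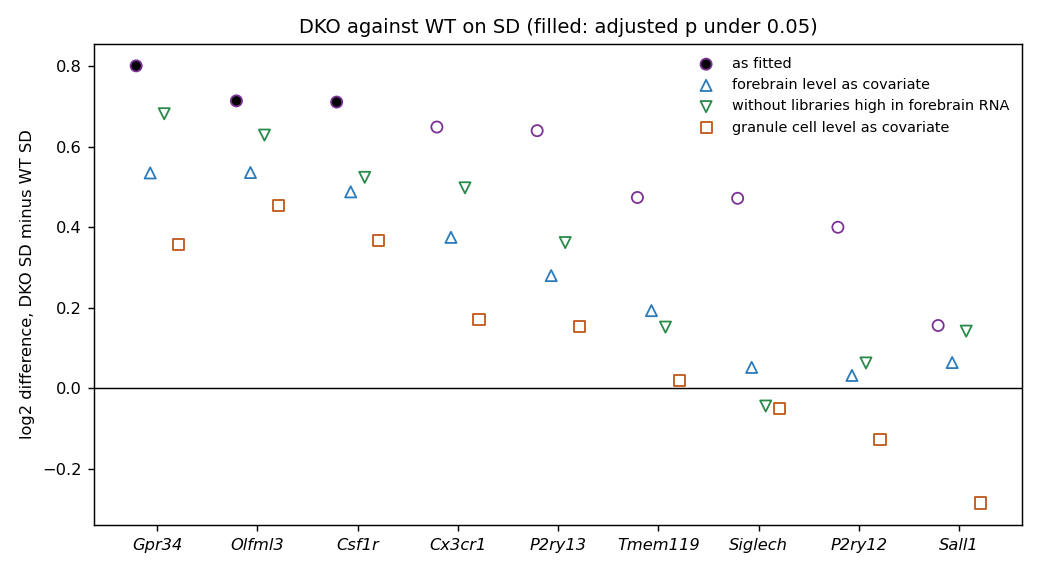
Log2 difference, DKO SD minus WT SD, of each of the 9 homeostatic genes as fitted (circles), with the forebrain level as a covariate (upward triangles), without the libraries of high forebrain level (downward triangles) and with the granule cell level as a covariate (squares), filled where the adjusted p was under 0.05. Gpr34, Olfml3 and Csf1r are filled in the main result (0.80, 0.71 and 0.71), and no symbol is filled under the other settings.

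Other microglial genes were also called in DKO SD. Of the 33 other homeostatic genes, 4 were called higher (3.1% of all genes) and 1 lower (2.82% of all genes). Their median log2 difference was 0.41, and 27 of the 33 were above 0. Given here are 3 of the 4 genes called higher and the 1 called lower. Fcrls, an Fc receptor-like gene of mouse microglia, differed by 1.72 (SE 0.38), the crystallin gene Crybb1 by 1.19 (SE 0.37) and the prostaglandin synthase Hpgds by 0.89 (SE 0.27), while the nuclear receptor cofactor Nrip1 fell by 0.50 (SE 0.15). These 4 were named after their values were seen. Of the shared macrophage genes 18 of 30 were called higher, with a median of 0.93. Of the ligands, Cx3cl1, made by neurons, read 6521 at its highest in DKO SD and 1466 at its highest in WT SD (log2 difference 1.15, adjusted p = 0.0519), and Il34, made mostly by forebrain neurons, differed by 1.07 (adjusted p = 0.0537). Neither was called.

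CSB was also compared with WT on SD. In it 0 of the 9 genes were called, and 4 had an unadjusted p under 0.05, all higher. Of all genes 1683 (7.88%) had such a p, 904 of them higher. Of the 9 differences 8 were above 0, and their median was 0.36. In all, 29 genes (0.136%) were called. Among those called higher were 13 of the 36 activation genes (median 0.73), or 8 without WT SD 39 and 6 without WT SD 41. Olfml3 read 274 to 437 with a median of 346 in CSB, against 182 to 274 with a median of 229 in WT. It was the 1 gene of the 9 with every CSB library above every WT library, as 1.59% of all tested genes were, and it differed by 0.65 (SE 0.17, adjusted p = 0.199). Cx3cr1 differed by 0.55 (SE 0.20), Csf1r by 0.49 (SE 0.20) and Gpr34 by 0.47 (SE 0.22). P2ry12 read 305 to 520 with a median of 367 in CSB, against 334 to 487 with a median of 392 in WT. The CSB libraries spanned the whole WT range, and the difference was -0.04 (95% interval -0.45 to 0.38). In CSB SD the library CSB SD 30 had the lowest value of 6 for Csf1r, Olfml3, Sall1, P2ry13, Gpr34, Siglech, Cx3cr1 and Tmem119.

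INDY differed from WT on SD in the same direction for all 9 genes, by 0.29 (P2ry13) to 0.51 (Gpr34 and Tmem119), with 0 called. Of the 9 genes 4 had an unadjusted p under 0.05, all higher. Of all genes 3063 (14.3%) had such a p, 1704 of them higher. In that comparison 1 gene of all (0.00468%) was called and 0 of 36 activation genes, whose median was 0.14. Tmem119 read 219 to 310.2 with a median of 240.2 in INDY, against 165 to 187 with a median of 173 in WT. Every INDY library stood above every WT library, as in 2.74% of all tested genes (log2 difference 0.51, SE 0.19, adjusted p = 0.319). The comparisons of DKO, CSB and INDY with WT on SD share the same 4 WT SD libraries, which stood low for 8 of the 9 genes. The differences between DKO and CSB on SD, which do not use them, ran from -0.17 (Sall1) to 0.45 (P2ry13) with 0 called (0.00468% of all genes) and 1 at an unadjusted p under 0.05 (13.6% of all genes), P2ry12 at 0.44 (95% interval 0.02 to 0.85). Those between DKO and INDY on SD ran from -0.14 (Sall1) to 0.38 (Csf1r), with 0 called (0.0608% of all genes, 0.0468% higher). For Olfml3 every DKO library stood above every INDY library, as in 0.786% of all tested genes (log2 difference 0.32, adjusted p = 0.783, limma). Of 36 activation genes 6 were called higher with a median of 0.46, a count that ran from 1 to 7 when single libraries were left out.

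On KD no homeostatic gene was called between genotypes. DKO differed from WT by -0.32 (Tmem119) to 0.13 (Gpr34), CSB from WT by -0.29 (Tmem119) to 0.16 (Cx3cr1), and INDY from WT by -0.38 (Csf1r) to 0.14 (Sall1), with 0 of 9 called and 0 at an unadjusted p under 0.05 in each. The share of all genes called was 0.00936% for DKO, 0.00468% for CSB and 0.00936% for INDY. Csf1r read 1247 to 1655 with a median of 1439 in DKO KD, 1155 to 1759 with a median of 1372 in CSB KD and 796 to 1571 with a median of 1278 in INDY KD, against 1622, 1269, 2277 and 1176 in WT KD. The third of these WT values is that of the library labelled WT KD 25. Without it Csf1r differed by 0.08 in DKO and by 0.05 in CSB, in place of -0.11 and -0.14, and by -0.19 in INDY, in place of -0.38, and 0 of the 9 genes were called. Activation genes called higher on KD numbered 0 of 36 in DKO and in CSB against WT, or 4 and 1 without that library. Between DKO and INDY on KD 8 of 36 activation genes were called higher (median 0.60; 3 to 15 when single libraries were left out), and of the 9 homeostatic genes 0 were called, between -0.28 (P2ry12) and 0.27 (Csf1r), with 0.0983% of all genes called, 0.0842% higher. Between DKO and CSB on KD the range was -0.13 (P2ry12) to 0.09 (Gpr34), with 0 called (0.0281% of all genes).

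The loss of Slc13a5 was averaged over both diets by setting INDY and DKO against WT and CSB. All 9 genes were above 0, from 0.05 (Csf1r) to 0.21 (Gpr34), with 0 called, 0 at an unadjusted p under 0.05 and 0.014% of all genes called. P2ry12 differed by 0.20 (SE 0.10, adjusted p = 0.511), and by 0.22 without the library labelled WT KD 25 (adjusted p = 0.401). Of the 36 activation genes 0 were called in this comparison, with a median of 0.00.

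Diet was compared over all genotypes and within each. Over all genotypes KD minus SD ran from -0.04 (Tmem119 and P2ry13) to 0.09 (P2ry12), with 0 of the 9 and 0% of all genes called by limma and 0 of the 9 at an unadjusted p under 0.05. In WT all 9 genes were higher on KD, by 0.12 (Sall1) to 0.57 (Csf1r), with 0 called (0% of all genes). Of the 9 genes 3 had an unadjusted p under 0.05. Of all genes 2868 (13.4%) had such a p, 1642 of them higher. Tmem119 read 206, 199, 293 and 267 in WT KD, against 173, 174, 165 and 187 in WT SD, with no overlap (log2 difference 0.45, SE 0.21, adjusted p = 0.365). Gpr34 read 188, 188, 258 and 188 in WT KD, against 142, 155, 128 and 167 in WT SD, also without overlap (0.46, SE 0.24). Siglech was the third such gene, and 5.13% of all tested genes had every WT KD library above every WT SD library. Without the library labelled WT KD 25 it was the same 3 genes, and 5.85% of all genes. Without the library labelled WT KD 25 the differences in WT ran from -0.03 (Sall1) to 0.38 (Csf1r and Olfml3), and 0 were called. The forebrain level was 7.01 ± 1.11 in WT KD and 5.52 ± 0.16 in WT SD, and the granule cell level 11.78 ± 0.45 in WT KD and 12.25 ± 0.27 in WT SD (n = 4 each). Without the library labelled WT KD 25 these levels in WT KD were 6.73 ± 1.17 and 11.93 ± 0.41 (n = 3). With the forebrain level as a covariate the differences in WT were smaller for all 9 genes, with P2ry12 at 0.10, in place of 0.39, Siglech at 0.03, in place of 0.37, and P2ry13 at -0.05, in place of 0.24. With the granule cell level as a covariate they ran from -0.05 (Sall1) to 0.45 (Csf1r), and without the libraries of high forebrain level, which leaves 1 WT KD library, from 0.12 (P2ry13) to 0.61 (Tmem119), with 0 called in each. Other markers moved too: the neutrophil level was 9.69 in WT KD 12 and 7.93 in WT KD 7, against 2.56 to 5.88 in the libraries outside WT KD. The choroid plexus level was 6.52 ± 2.01 in WT KD and 8.59 ± 0.71 in WT SD, with a median log2 difference of -1.81 over 15 genes. The part of neutrophil and choroid plexus RNA in the differences was not tested.

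In the other genotypes KD minus SD was above 0 for 1 of the 9 genes in DKO, 4 in CSB and 2 in INDY. It ran from -0.38 (P2ry13) to 0.05 (Sall1) in DKO, from -0.25 (Olfml3) to 0.30 (P2ry12) in CSB and from -0.28 (Tmem119) to 0.02 (Olfml3) in INDY, with 0 of 9 called and 0 at an unadjusted p under 0.05 in each; of all genes 0.00468% were called in DKO and 0% in CSB and INDY. The response to KD minus that in WT was below 0 for each gene in all 3 genotypes, 27 values that share the 8 WT libraries. Of these 0 were called, 9 had an unadjusted p under 0.05 and the lowest adjusted p was 0.16, while 0% of all genes were called for DKO and CSB and 0.014% for INDY. The 9 were 5 in DKO, 2 in CSB and 2 in INDY, where 18.7%, 6.41% and 14.3% of all genes had an unadjusted p under 0.05 in either direction. Genes with such a p and a difference below 0 numbered 2138, 678 and 1640 in that order. The largest of the 27 values, for Csf1r in DKO, was -0.82 (SE 0.30, adjusted p = 0.165), and -0.63 without the library labelled WT KD 25 (adjusted p = 0.358). Without that library 3 of the 27 values were above 0: P2ry12 and P2ry13 in CSB at 0.01 and 0.03, in place of -0.09 for both, and Sall1 in DKO at 0.08, in place of -0.06.

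From library to library the 9 genes varied together. After subtraction of the group means, over the 40 libraries, each gene followed the mean of the other 8 with a Pearson r of 0.66 (Sall1) to 0.90 (P2ry13 and Tmem119). The closest pairs were P2ry13 with Gpr34 (r = 0.89) and P2ry12 with P2ry13 (r = 0.88), and Siglech was closest to P2ry12 (r = 0.85). These correlations are descriptions without a test, over libraries that share 1 scaling. Sall1 followed the mean level of 13 oligodendrocyte genes with r = 0.87, above its r of 0.66 with the mean of the other members. The other 8 genes followed that level with 0.31 (Siglech) to 0.57 (Cx3cr1).

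The mean level of the 9 genes followed that of the 33 other homeostatic genes (r = 0.91, Spearman rho = 0.85) and of the 30 shared macrophage genes (r = 0.76, rho = 0.72), and that of the 36 activation genes less closely (r = 0.55, rho = 0.42, and r = 0.43 without INDY KD 20 and CSB KD 13). It ran against the level of 14 granule cell genes (r = -0.80, rho = -0.89), with r = -0.85 without DKO SD 1 and DKO SD 36 and r = -0.88 in the 28 libraries of low forebrain level. It also ran against the level of 12 Purkinje cell genes (r = -0.78) and with that of 18 forebrain genes (r = 0.59, or 0.52 without the same 2 libraries). In the 28 libraries of low forebrain level the r with the activation genes was 0.89 and that with the oligodendrocyte genes 0.95, against 0.59 with the oligodendrocyte genes in all 40. The level of border-associated macrophage genes did not follow it (r = 0.05). Within groups, a library with more signal of the homeostatic genes was thus one with less signal of cerebellar neurons.

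The 10 genes outside the set whose values followed the standardised mean of the 9 most closely within groups, over 40 libraries, were Baalc (r = 0.93), Sh3kbp1 (0.93), Sh3gl3 (0.92), Tppp (0.91), Selplg (0.91), Ppp2r5c (0.90), Nudt10 (0.90), Havcr2 (0.90), Mchr1 (0.90) and Cdh10 (0.90). Of these Selplg, a selectin ligand, is also on the list of other homeostatic genes, Havcr2 encodes the immune receptor Tim-3, and Tppp encodes a tubulin polymerisation protein of oligodendrocytes.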

How the data were processed

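RNA of mouse cerebellum was rRNA-depleted and sequenced in 40 libraries, per the labels' protocols. The values are signals per gene that the authors made from estimated counts by normalising between libraries. The submitters' processing notes name Bowtie2, Salmon, DESeq2 and the build mm9, with no versions, roles or order. Whole reads could not be recovered, so no count model was used, the depth is unknown and no counting intervals are given. 0 pairs of libraries held identical values.

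Gene IDs were matched to GENCODE M21 (GRCm38), 53444 of 54331 with their version and 54097 without it. Differences of log2(value + 1) were tested with limma 3.58.1 in R 4.3.3 (trend and robust options) in 1 fit of the 8 groups over 40 libraries, for the 21367 genes that reached 10 in 4 or more libraries. P-values were Benjamini-Hochberg adjusted over these genes, and calls required an adjusted p under 0.05. Differences on this scale understate the change of low genes. The level of a list is the mean log2(value + 1) of its genes in a library. The fit was checked on simulated data in which each gene varied independently. That check does not cover variation that genes share between libraries.

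The 9 genes and all gene lists were chosen with earlier results of these data known. In every list of microglial genes, up to 8 called genes with the smallest p in the comparison of CSB and DKO with WT and INDY are named, plus the ligands Csf1, Il34, Cx3cl1 and Tgfb1. Gm6768, Lyz2, Gfap and 4 homeostatic genes called in DKO on SD (Fcrls, Crybb1, Hpgds and Nrip1) were named after their values were seen. Results of 1 gene of the lists are not reported here. Alternatives were pseudocounts of 0.5 and 5, no filter, rescaling, fits of only the groups compared, the forebrain level as a covariate, omission of libraries with a forebrain level above 6.5 and of each library in turn. The granule cell level as a covariate was added after the data were seen.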

Additional observations from a re-analysis of the deposited data

Results flagged for a closer look

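Among 72 groups of values, 9 genes in 8 groups, 6 held a library that stood apart from the rest of its group by Dixon's criterion, which chance gives in about 1 in 20 groups.

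The library labelled WT KD 25, whose Ercc6 and Gm6768 values go against its label, accounted for 3 of them. It read 643.7 for P2ry12, where the other 3 WT KD libraries read 479 to 493. For P2ry13 it read 197, against 141 to 145 in the others. For Gpr34 it read 258, against 188 in each of the others.

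DKO SD 1, the library with the highest forebrain level of its group, stood apart for 2 genes. It read 363 for Gpr34 and 1209.8 for Cx3cr1, where the other 3 DKO SD libraries read 216 to 238 and 791 to 799. DKO KD 47 read 228 for Tmem119, where the other 4 DKO KD libraries read 179 to 188.

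The response to KD differed from that in WT at an unadjusted p under 0.05 in 9 of 27 tests over the 9 genes and 3 genotypes, and in 0 after adjustment (lowest adjusted p = 0.16, limma). Of all genes 18.7% (DKO), 6.41% (CSB) and 14.3% (INDY) had such a p in these comparisons, in either direction. With a difference below 0, as in the 9 tests, they numbered 2138, 678 and 1640.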

How the results depend on the processing

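No paired analysis was possible because each library number in the labels occurs once and pairs no libraries across groups. Over the 180 differences of single genes and 4230 combinations with an alternative, 3946 kept their direction and their side of the threshold, 32 lost a call, 2 gained one and 250 changed the sign of a value that was not called. Only 3 of the 180 were called as fitted, so most combinations had no call to lose. The lost calls were those of Csf1r (in 12 of its 16 alternatives), Gpr34 (11 of 16) and Olfml3 (9 of 16) in DKO against WT on SD. In DKO against WT on SD, where 3 of the 9 genes were called, the number called was 0 with no filter, with the forebrain level as a covariate, without the libraries of high forebrain level and with the granule cell level as a covariate, which was chosen after seeing the data. The causes of these changes were not tested. It ran from 0 to 4 when single libraries were left out. In CSB and DKO against WT and INDY it ran from 0 to 1, with the 1 call, Olfml3, in the fit without INDY KD 22. In the other 18 comparisons the number called was 0 under every alternative run. The unknown depth limits statements on precision to the spread between libraries.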
